A study of Mus musculus with 12 samples.

Results

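The genes described here are 30 chaperones, folding enzymes, stress sensors, degradation factors and translocon subunits of the endoplasmic reticulum (ER), picked by gene symbol from a table of 24502 genes. All 30 were in the table, and all 30 were among the 14827 genes with enough counts to be tested. They were measured by poly(A) RNA sequencing of mouse regulatory T cells (Treg cells, the CD4 T cells that express Foxp3 and restrain immune responses). The groups were wild-type cells (strain label WT) and cells from Foxp3CreGpx4fl/fl mice, in which Cre recombinase made under Foxp3 control deletes Gpx4 (Gpx4-deficient here). All mice were 11 weeks old. Each genotype was taken unstimulated or stimulated for 4 hours with anti-CD3 and anti-CD28 fixed to the plate (5 µg/ml), with 3 libraries in each of the 4 groups. The labels say neither whether the wild-type mice carried Cre nor how long the unstimulated cells were in culture. The labels do not tie libraries to animals. The p-values therefore reflect only how these libraries vary, which may be technical variation.

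Secreted and membrane proteins enter the ER through the SEC61 channel, fold with the help of the HSP70 chaperone BiP, lectin chaperones and disulfide isomerases, and are sent to the proteasome by ER-associated degradation when folding fails. When unfolded proteins build up, the membrane sensors IRE1, PERK and ATF6 start the unfolded protein response. IRE1 splices the mRNA of the transcription factor XBP1, PERK phosphorylates the translation factor eIF2alpha, and ATF6 is cut to release a transcription factor, and together they raise chaperone and degradation genes. T cells enlarge their secretory machinery when they are activated. Gpx4 itself encodes the enzyme that reduces lipid hydroperoxides in membranes.

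ATF6 and XBP1 are known to bind a DNA element in front of chaperone genes, and some of these promoters hold its letters. RefSeq promoters (GRCm38.p6, 250 bases before to 50 after the start) were matched for 25 members, and Atf6, Hyou1, Manf, Derl1 and Sec61a1 had none in the table. The ER stress response element (ERSE, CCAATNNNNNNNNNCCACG, searched on both strands) was present in 8 of the 25, against 0.137% of 27025 genes. The related ERSE-II, which also ends in CCACG and is spelled out in the Herpud1 line below, was present in Herpud1 and Dnajb11, against 0.0444% of genes. The members were picked as genes of the pathway that these elements are known for, so the higher shares are no independent result. The core of the XBP1 element (TGACGTGG) was in 0 of the 25, against 0.714% of genes, which says only that these letters are absent from these windows. The matches upstream of the start are shown because they are the known response element of this pathway. Most matched members hold neither form, and the Dnajb11 match is not shown. Capitals mark the element and lower case the 5 bases on each side, all upstream of the RefSeq start and read 5′ to 3′ on the strand of the gene. CGTGG at the left end means that the element lies on the other strand.
Hspa5: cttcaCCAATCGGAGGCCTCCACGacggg
Hsp90b1, distal: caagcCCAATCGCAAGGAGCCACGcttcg
Hsp90b1, proximal: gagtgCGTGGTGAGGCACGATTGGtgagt
Calr: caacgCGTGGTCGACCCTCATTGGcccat
Canx: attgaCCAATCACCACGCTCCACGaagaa
Pdia6: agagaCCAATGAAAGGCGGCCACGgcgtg
Dnajc3: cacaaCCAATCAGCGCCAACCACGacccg
Creld2: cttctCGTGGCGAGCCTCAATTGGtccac
Syvn1: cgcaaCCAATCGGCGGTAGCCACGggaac
Herpud1 (ERSE-II): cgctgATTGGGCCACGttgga
The Hspa5 element lies 65 to 47 bases before the start, and the printed window with its flanks is chr2:34772020-34772048 (plus strand). The Calr element lies 162 to 144 bases before it (window chr8:84847070-84847098, minus strand), and the Herpud1 element 52 to 42 bases before it (window chr8:94386372-94386392, plus strand). Hsp90b1 carries a pair, from 212 to 194 and from 107 to 89 bases before the start. A match is a description of letters and not a measured binding site. Gene positions given below follow the GENCODE annotation, whose Hspa5 start (34771970) lies before the printed Hspa5 window.

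Library totals ran from 24629230 to 31879267 counts, and the raw counts of the members from 59 (Ern1) to 42904 (Hspa5). Gpx4 was at 69.2 to 172.1 CPM (counts scaled to library size with TMM factors) in the 6 wild-type libraries and at 3.34 to 12.3 CPM in the 6 Gpx4-deficient ones. All 8 Treg and T cell markers, Foxp3 among them, had group means above 5 CPM in every group. Stimulated Gpx4-deficient libraries stood apart: mitochondrially encoded transcripts took 2.84% to 3.72% of their counts against 1.18% to 1.37% in stimulated wild type. Without stimulation the shares were 1.72% to 1.94% and 1.21% to 1.38%. In them 107 to 190 genes were at 0 that reached a mean of 5 CPM over the other 11 libraries, against 25 to 69. Their replicates correlated at 0.795 to 0.820 across genes, against 0.890 to 0.910. Unstimulated Gpx4-deficient replicate 1 was the lowest of its group for 21 of the 30 members (and for 42.2% of all tested genes). The numbers in the library names of a genotype follow each other, and a batch that goes with them cannot be told apart from genotype. For 7 members (Hsp90b1 and Derl1 in 12 libraries, Derl2 in 11, Sec61b in 9, Eif2ak3 in 7, Manf in 4 and Sec61a1 in 1) the deposited counts were not whole, so some of their reads were shared with other sequences and their values are less certain.

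Per kilobase of exon, the luminal chaperones led and the sensors came last. In unstimulated wild-type cells BiP (Hspa5) stood at 346.7 CPM per kb and the disulfide isomerase ERp57 (Pdia3) at 331.2 CPM per kb. Calr, Pdia4, P4hb, Hsp90b1 and Os9 followed between 133.8 and 108.5 CPM per kb, an order in which neighbours lay close together. Eif2ak3 (3.92), Atf6 (2.80) and Ern1 (0.598 CPM per kb) were the lowest of the 30. Stimulation reordered the upper ranks. In stimulated wild-type cells Hspa5 was at 357.7 CPM per kb and Pdia3 at 149.4, next to Herpud1 at 144.1, Pdia4 at 141.1 and P4hb at 140.6. In stimulated Gpx4-deficient cells Hspa5 was at 258.8 CPM per kb, followed by Pdia4 (173.4), Herpud1 (138.0), Xbp1 (125.7) and Pdia3 (118.6). Within groups the median coefficient of variation of the members was 10.7% before and 14.9% after stimulation in wild-type libraries, and 15.8% and 20.8% in Gpx4-deficient ones. For the 6852 tested genes in the same range of mean level it was 12.8% and 15.8%, and 19.2% and 31.1%. The steadiest member in stimulated Gpx4-deficient libraries was Xbp1 (1.34%) and the most variable Dnajc3 (66.1%).

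**Figure D1:**
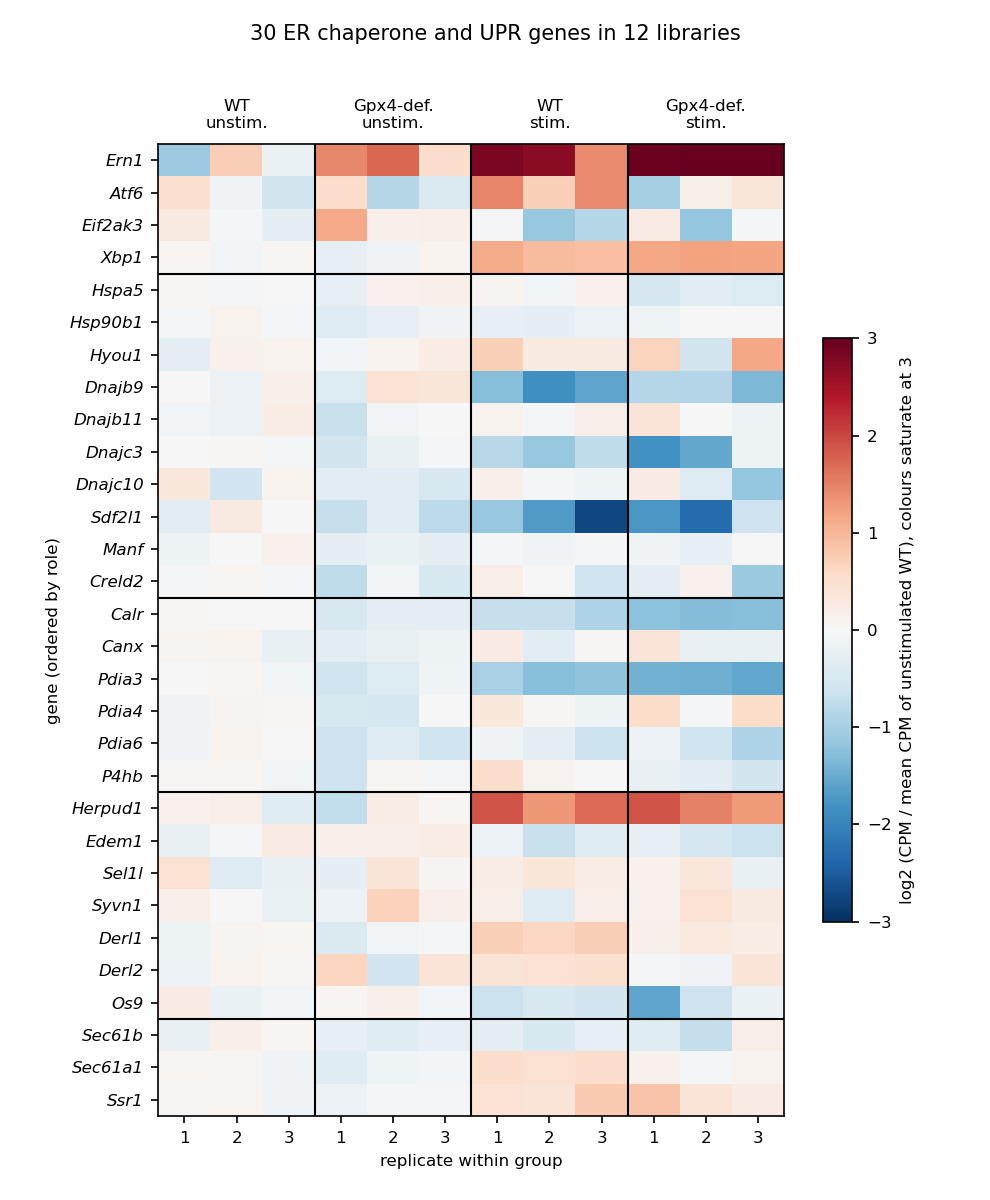
Level of each of the 30 genes (rows, ordered by role: sensors, chaperone machine, lectin chaperones and isomerases, degradation, translocon) in each of the 12 libraries (columns), as log2 of CPM over the mean of unstimulated wild type. Ern1, Xbp1 and Herpud1 are above 0 in all 6 stimulated libraries, and Dnajb9, Sdf2l1, Calr and Pdia3 are below 0 in all 6.

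Stimulation was compared first, since it asks how the ER programme responds to T cell receptor signals in each genotype. In wild-type cells 5 members rose (Ern1, Xbp1, Herpud1, Derl1 and Sec61a1), 4 fell (Pdia3, Calr, Dnajb9 and Sdf2l1) and 21 did not pass the test (edgeR quasi-likelihood test, Benjamini-Hochberg adjusted p under 0.05 over all tested genes). Of all tested genes 6.12% were called higher and 5.41% lower in this comparison. In Gpx4-deficient cells 5 rose (Ern1, Xbp1, Herpud1, Pdia4 and Ssr1) and 5 fell (Pdia3, Calr, Dnajb9, Hspa5 and Edem1), against 7.45% higher and 7.83% lower over all genes. These shares include genes that vary more than the members (median coefficient of variation 23.2% against 10.7% in unstimulated wild type). No share was computed for genes of like level. The median log2 fold change of the 30 was 0.02 in wild type and 0.05 in Gpx4-deficient cells, where it was -0.03 and -0.02 over all tested genes. Ern1 and Xbp1 thus rose in both genotypes, and the other sensors were not called. Of the degradation genes 2 rose in wild type, while 1 rose and 1 fell in Gpx4-deficient cells. The called chaperones and isomerases fell, except Pdia4 in Gpx4-deficient cells. The comparisons of stimulation share no libraries, and across the 30 genes their log2 fold changes correlated at r = 0.89 (Spearman 0.81), beside 0.42 (0.51) across all 14827 genes. Genes are not independent replicates, and low-count genes add noise to the value over all genes. In an edgeR fit of only the Gpx4-deficient groups, 6 of their 10 calls were lost (Ern1, Dnajb9, Hspa5, Pdia4, Edem1 and Ssr1, adjusted p from 0.0503 to 0.128).

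Cells other than Treg cells may contribute to such differences, and in bulk RNA fewer cells of a type cannot be told apart from less RNA per cell. The summed level of 6 monocyte and macrophage markers ran from 134.8 to 243.4 CPM in unstimulated and from 25.8 to 63.2 CPM in stimulated wild-type libraries, with 3 and 1 of the 6 above a mean of 5 CPM. In Gpx4-deficient libraries it ran from 117.9 to 159.7 and from 65.2 to 89.9 CPM (4 and 5 of the 6). The 7 B cell markers summed to 59.1 to 83.1 and 15.5 to 24.1 CPM in wild type (4 and 2 above 5 CPM, Pax5 at 0 without stimulation), and to 32.3 to 70.7 and 5.49 to 64.9 CPM in Gpx4-deficient libraries (2 and 2). The 4 stromal and epithelial markers found, mostly Pecam1, summed to 176.2 to 193 and 92 to 106 CPM in wild type. In Gpx4-deficient libraries they summed to 178.3 to 210.7 and 52.9 to 93.8 CPM. Pecam1 alone had wild-type means of 160.9 and 78.9 CPM. Epcam was at 21.6 and 19.2 CPM in wild type, and Col1a1 and Col1a2 were at 0.593 to 1.98 CPM. The CD8 and NK sums were 22.6 to 32.3 and 9.76 to 17.9 CPM in wild type, and 25 to 29.9 and 21.4 to 24.9 CPM in Gpx4-deficient libraries. The erythroid and platelet sums given below separated only in wild type. The part of these cells in the stimulation results was not tested.

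Among the sensors, the gene for IRE1 showed the largest change. Ern1 (chromosome 11, 106394650 to 106487852, minus strand, GRCm38) was at 2.28, 8.12 and 4.25 CPM in unstimulated wild-type libraries and at 34.4, 32.1 and 13 CPM in stimulated ones. In Gpx4-deficient libraries it was at 13.2, 16.2 and 7.09 CPM without stimulation and at 37.3, 44.7 and 69.3 CPM with it. Every stimulated library lay above every unstimulated one of its genotype, although stimulated wild-type replicate 3 was close to the unstimulated Gpx4-deficient level. Ern1 rose by 2.44 on the log2 scale in wild type (SE 0.58, adjusted p = 0.0166). The rise in Gpx4-deficient cells was 2.05 (SE 0.57, adjusted p = 0.0304). Both calls rest on low counts: in wild type the call was lost without unstimulated replicates 1 or 3 or stimulated replicates 1 or 2 (adjusted p up to 0.0749) and with limma-voom, and in Gpx4-deficient cells without unstimulated replicates 1, 2 or 3 or stimulated replicate 3 (up to 0.107).

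Xbp1, which encodes the transcription factor that IRE1 activates by splicing, rose in both genotypes. It lies on chromosome 11 from 5520659 to 5525893 (plus strand). Its level was 188.2, 169.6 and 184.0 CPM in unstimulated wild type and 391.8, 349.1 and 336.7 CPM after stimulation. The Gpx4-deficient libraries held 153.4, 166.7 and 195.6 CPM and then 403.2, 414.0 and 407.2 CPM. No stimulated library overlapped the unstimulated ones, and Xbp1 rose by 0.99 in wild type (SE 0.12, adjusted p = 0.00013) and by 1.25 in Gpx4-deficient cells (SE 0.12, adjusted p = 2.12e-05). Gene-level counts cover spliced and unspliced Xbp1 mRNA together, so splicing was not measured.

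The other sensors were not called after stimulation. Atf6 was at 36.0, 24.0 and 17.6 CPM in unstimulated and at 71.1, 42.3 and 69.7 CPM in stimulated wild-type libraries, which did not overlap (log2 fold change 1.24, SE 0.47, adjusted p = 0.132, and 0.0248 in an edgeR fit of only these groups). In Gpx4-deficient libraries Atf6 was at 37.2, 14.2 and 19.3 CPM and then at 12.9, 29.3 and 33.5 CPM, which overlapped (0.10, adjusted p = 0.927). The PERK gene Eif2ak3 was at 28.5, 22.8 and 19.7 CPM in unstimulated and at 22.6, 10.7 and 13 CPM in stimulated wild type. With Gpx4 deleted it was at 52.0, 26.2 and 26.5 CPM and then at 28.0, 10.6 and 23.2 CPM. The log2 fold changes of Eif2ak3 were -0.62 (adjusted p = 0.523) and -0.76 (adjusted p = 0.316).

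**Figure D2:**
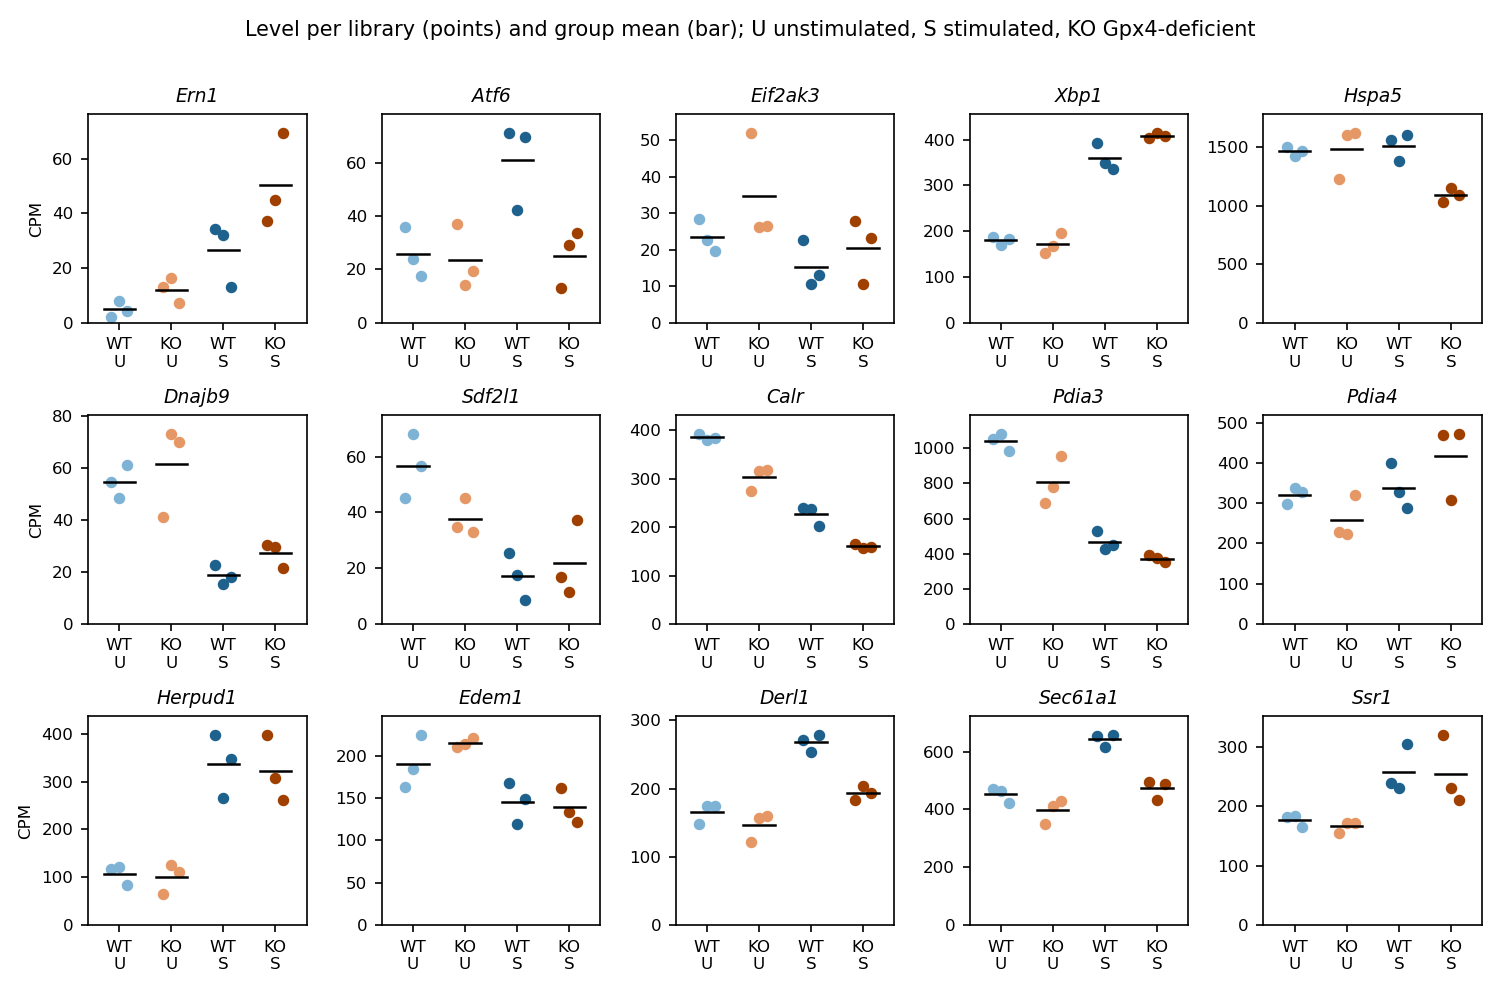
CPM in every library (points, replicates 1 to 3 from left to right) and group mean (bar) for the 15 members with values given per library, with U for unstimulated, S for stimulated and KO for Gpx4-deficient; each panel has its own axis from 0. Xbp1 and Herpud1 are higher in both stimulated groups, Calr and Pdia3 are lower in both, and Hspa5 is lower in stimulated Gpx4-deficient libraries.

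Most members of the BiP machine kept levels that the test did not separate after stimulation. Hspa5 encodes BiP, the HSP70 of the ER lumen that holds the sensors inactive, and lies on chromosome 2 from 34771970 to 34777547 (plus strand). It was at 1503.7, 1424.4 and 1470.5 CPM in unstimulated and at 1556.7, 1378.5 and 1602.6 CPM in stimulated wild type, a difference of 0.04 on the log2 scale (SE 0.11, adjusted p = 0.895). With Gpx4 deleted it was at 1227.0, 1607.1 and 1619.0 CPM and, after stimulation, at 1035.0, 1154.0 and 1094.7 CPM. Those libraries did not overlap, and Hspa5 fell by 0.44 on the log2 scale (SE 0.11, adjusted p = 0.0171). That call was lost without unstimulated replicates 2 or 3 or stimulated replicate 1 (adjusted p up to 0.0804).

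Dnajb9 encodes ERdj4, a J-domain co-chaperone that recruits BiP to IRE1. It was at 54.5, 48.3 and 61.1 CPM in unstimulated and at 22.6, 15.2 and 18.2 CPM in stimulated wild type. Gpx4-deficient libraries went from 41.2, 72.8 and 69.8 CPM to 30.4, 29.6 and 21.4 CPM. Dnajb9 thus fell in both genotypes without overlap, by 1.55 in wild type (SE 0.30, adjusted p = 0.00441) and by 1.17 in Gpx4-deficient cells (SE 0.30, adjusted p = 0.0192). The call in Gpx4-deficient cells was lost without unstimulated replicates 2 or 3 (adjusted p up to 0.0884).

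Sdf2l1 encodes a luminal partner of J-domain co-chaperones. Its levels were 45.1, 68.0 and 56.7 CPM and then 25.6, 17.4 and 8.57 CPM in wild type. In Gpx4-deficient cells they were 34.9, 45.0 and 32.8 CPM and then 16.9, 11.4 and 37.1 CPM. Sdf2l1 fell in wild type (log2 fold change -1.72, SE 0.49, adjusted p = 0.041) but that call was lost under the replicate block (adjusted p = 0.0869) and without any 1 of its 6 libraries except stimulated replicate 1 (up to 0.131). In Gpx4-deficient cells the groups overlapped, since stimulated replicate 3 was high (-0.79, adjusted p = 0.301).

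The other 7 members of this machine were called in neither genotype after stimulation. They are the HSP90 of the lumen (Hsp90b1), the BiP exchange factor Hyou1, the J-domain proteins Dnajb11, Dnajc3 and Dnajc10, and the stress-induced luminal proteins Manf and Creld2. Their log2 fold changes ran from -0.90 (Dnajc3) to 0.43 (Hyou1) in wild type and from -0.71 (Dnajc3) to 0.50 (Hyou1) in Gpx4-deficient cells. Dnajc3 was at 151.7 ± 4.42 and 81.5 ± 11.4 CPM in wild type without overlap (SD, n = 3; edgeR adjusted p = 0.144, and 0.00218 in a fit of only these groups). In stimulated Gpx4-deficient libraries it was at 43.4, 52.4 and 136.1 CPM, replicate 3 being high. Without that library its log2 fold change there was -1.40 with an adjusted p of 0.000825, against 0.202 in the main fit. Only 2 of the alternative runs called it there. Hyou1 was similarly uneven there, at 86.3, 36.6 and 120.4 CPM. Without stimulated replicate 2 its log2 fold change in Gpx4-deficient cells was 0.86 (adjusted p = 0.0291, against 0.381 in the main fit). That was the only run that called it.

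The calreticulin and calnexin cycle holds newly made glycoproteins while ERp57 forms their disulfide bonds. Calr (chromosome 8, 84841850 to 84846934, minus strand) was at 391.9, 380.5 and 383.9 CPM in unstimulated and at 240.0, 237.8 and 202.0 CPM in stimulated wild type. Gpx4-deficient libraries held 274.7, 316.8 and 318.1 CPM and then 165.4, 156.4 and 158.7 CPM. The 4 groups did not overlap with each other at any point. After stimulation Calr fell by 0.77 in wild type (SE 0.11, adjusted p = 0.000528) and by 0.92 in Gpx4-deficient cells (SE 0.11, adjusted p = 0.00014).

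Pdia3 (chromosome 2, 121413775 to 121438687, plus strand) encodes ERp57, which also serves in peptide loading of MHC class I. It was at 1055.1, 1080.4 and 983.0 CPM in unstimulated and at 527.1, 428.7 and 450.8 CPM in stimulated wild type. Gpx4-deficient libraries went from 687.0, 781.3 and 957.5 CPM to 391.0, 373.7 and 352.1 CPM. Each pair of groups was fully separated, and Pdia3 fell by 1.15 in wild type (SE 0.13, adjusted p = 7.86e-05) and by 1.12 in Gpx4-deficient cells (SE 0.13, adjusted p = 9.85e-05).

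No other isomerase was called lower after stimulation. Pdia4, which encodes ERp72, was at 296.8, 336.5 and 327.9 CPM and then at 399.8, 328.3 and 287.5 CPM in wild type, where the groups overlapped (log2 fold change 0.08, adjusted p = 0.898). In Gpx4-deficient cells it was at 228.8, 223.2 and 321.0 CPM and then at 469.3, 307.3 and 471.1 CPM, a called rise of 0.69 (SE 0.20, adjusted p = 0.0341) with overlapping libraries. That rise lost its call without unstimulated replicates 1 or 2 or stimulated replicates 1 or 3 (adjusted p up to 0.0953). Canx, Pdia6 and P4hb, for calnexin and further isomerases, were called in neither genotype, with log2 fold changes from -0.33 to 0.25. The lowest value was that of Pdia6 in wild type, where stimulated libraries (182.6 to 264.7 CPM) lay below unstimulated ones (267.4 to 307.8 CPM).

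Among the degradation genes the largest rise was that of Herpud1, which encodes HERP, a membrane protein that helps assemble the HRD1 ubiquitin ligase. It lies on chromosome 8 from 94386438 to 94395377 (plus strand). Levels were 117, 122.4 and 83.0 CPM in unstimulated and 396.7, 265.7 and 346.3 CPM in stimulated wild type. In Gpx4-deficient libraries they were 64.1, 125.3 and 111.9 CPM and then 396.6, 307.1 and 262.0 CPM. The stimulated libraries all lay above the unstimulated ones, and Herpud1 rose by 1.65 in wild type (SE 0.27, adjusted p = 0.00144) and by 1.68 in Gpx4-deficient cells (SE 0.27, adjusted p = 0.00121).

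Derl1 encodes derlin-1, part of the channel through which substrates leave the ER. It was at 148.7, 174.8 and 174.1 CPM and then at 271.8, 254.3 and 278.1 CPM in wild type, a rise of 0.69 (SE 0.14, adjusted p = 0.00516). In Gpx4-deficient cells it was at 122.0, 157.1 and 159.4 CPM and then at 183.1, 204.5 and 193.4 CPM (0.41, SE 0.14, adjusted p = 0.0666). Both pairs were separated. The second was called by DESeq2 (adjusted p = 0.0181) and with a filter of 1 CPM in edgeR (0.0295).

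Edem1 encodes a lectin that delivers misfolded glycoproteins to degradation. It was at 162.7, 184.7 and 224.2 CPM and then at 168.0, 119.9 and 148.9 CPM in wild type, where the groups overlapped (log2 fold change -0.39, adjusted p = 0.195). Edem1 fell in Gpx4-deficient cells from 210.3, 213.5 and 221.4 CPM to 161.8, 133.5 and 122.0 CPM (-0.63, SE 0.17, adjusted p = 0.028). That call was lost without unstimulated replicates 1, 2 or 3 or stimulated replicates 2 or 3 (adjusted p up to 0.0854). The HRD1 ligase subunits Sel1l and Syvn1, derlin-2 (Derl2) and the lectin Os9 were called in neither genotype. Os9 was at 285.3 ± 46.8 and 193.0 ± 11.8 CPM in wild type and at 294.3 ± 22.1 and 176.2 ± 77.0 CPM in Gpx4-deficient cells, separated in both (log2 fold changes -0.56 and -0.74, adjusted p = 0.229 and 0.0838). Without stimulated Gpx4-deficient replicate 3, at 249.0 CPM the highest of its group, the latter was -1.08 (adjusted p = 0.0119).

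In the translocon, Sec61a1 encodes the pore itself. It was at 470.7, 464.9 and 423.2 CPM in unstimulated and at 654.8, 617.5 and 656.2 CPM in stimulated wild type, a rise of 0.51 (SE 0.10, adjusted p = 0.00664) without overlap. In Gpx4-deficient cells it was at 350.2, 412.4 and 428.2 CPM and then at 496.4, 431.5 and 489.6 CPM, separated but not called (0.25, SE 0.10, adjusted p = 0.127). Ssr1, a subunit of the translocon-associated complex, was at 182.7, 184.1 and 164.9 CPM and then at 239.3, 231.6 and 305.7 CPM in wild type (0.55, SE 0.17, adjusted p = 0.0588). In Gpx4-deficient cells Ssr1 was at 155.7, 172.4 and 171.9 CPM and then at 319.9, 231.6 and 211.2 CPM, a rise of 0.61 (SE 0.17, adjusted p = 0.0298). The rise in Gpx4-deficient cells lost its call with no filter on low counts (adjusted p = 0.0556), under the replicate block (0.0597), in the fit of only these groups (0.128) and without unstimulated replicates 1, 2 or 3 or stimulated replicate 1. The small subunit Sec61b was at 59.4 ± 7.97 and 47.4 ± 3.80 CPM in wild type and at 48.6 ± 2.32 and 50.4 ± 16.4 CPM in Gpx4-deficient cells, not called.

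**Figure D3:**
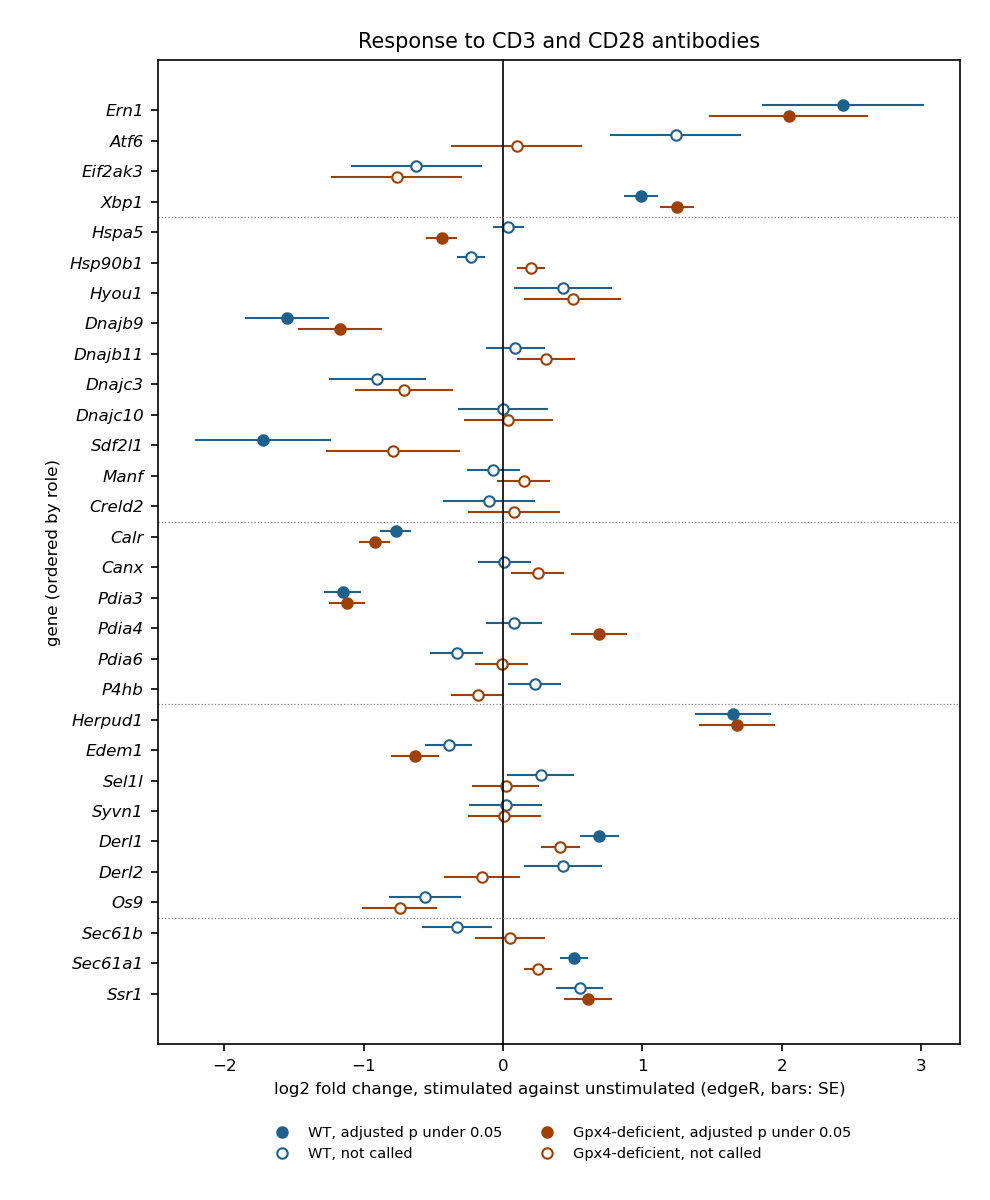
Log2 fold change after stimulation (horizontal axis, points with SE from the edgeR fit) for the 30 genes in wild-type (blue) and Gpx4-deficient cells (brown), filled where the adjusted p was under 0.05. Ern1, Herpud1 and Xbp1 lie to the right and Dnajb9, Pdia3 and Calr to the left in both genotypes, with r = 0.89 across the 30 genes.

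The elements were set beside the calls after stimulation. Of all tested genes 6.12% rose and 5.41% fell in wild type, and 7.45% rose and 7.83% fell in Gpx4-deficient cells. Of the 8 members with an ERSE, 0 rose and 1 fell (Calr) after stimulation of wild-type cells, and 0 rose and 2 fell (Calr and Hspa5) in Gpx4-deficient cells. Their median log2 fold changes were -0.16 and 0.00. Of the 17 matched members without it, 3 rose and 3 fell in wild type (median 0.08), and 5 rose and 3 fell in Gpx4-deficient cells (median 0.02). Herpud1, with the ERSE-II, was among the rises in both. Dnajb11, which also holds an ERSE-II, was called in neither (log2 fold changes 0.09 and 0.31). Counts in so few genes do not tie an element to a direction.

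The genotypes were then compared without stimulation, which asks whether loss of Gpx4 alone shifts the ER programme. None of the 30 members was called by edgeR, DESeq2 or limma-voom, where edgeR called 0.0674% of all tested genes. An unadjusted edgeR p under 0.05 was found for 5 members and for 860 of the 14827 tested genes. The median log2 fold change of the members was -0.18, against 0.01 over all tested genes, and 20 of the 30 were negative. All 6 lectin chaperones and isomerases were negative (median -0.33), while 5 of the 7 degradation genes were positive (median 0.08). In 9 members (Hsp90b1, Dnajc3, Sdf2l1, Manf, Creld2, Calr, Pdia3, Pdia6 and Sec61b) all 3 Gpx4-deficient libraries lay below all 3 wild-type ones, and in 0 they lay above. Over all genes the shares were 9.89% below and 8.42% above.

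The difference in Calr was the most regular of these. Its levels of 274.7 to 318.1 CPM against 380.5 to 391.9 CPM gave -0.35 on the log2 scale (SE 0.11, adjusted p = 0.595). Pdia3 (687.0 to 957.5 against 983.0 to 1080.4 CPM) gave -0.36 (adjusted p = 0.691) and Pdia6 (186.0 to 221.3 against 267.4 to 307.8 CPM) -0.52 (adjusted p = 0.738). The value for Hspa5 was 0.02 (adjusted p = 1). Ern1 had the largest positive value (1.31, SE 0.56, adjusted p = 0.861), with 7.09 to 16.2 CPM against 2.28 to 8.12 CPM. Summed over the 30 genes, the Gpx4-deficient libraries held 5740.0, 6848.2 and 7101.2 CPM and the wild-type ones 7429.0, 7354.2 and 7135.9 CPM, so that replicate 1 of the former was the lowest. Without that library the members' median was -0.04, and with 1 library fewer 9 members lay below and 2 above without overlap, beside 14.2% and 14% of all genes.

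After stimulation 3 members were called lower in Gpx4-deficient than in wild-type cells, Calr, Hspa5 and Sec61a1, and 0 were called higher. Over all tested genes 1.25% were called lower and 1.03% higher, and the median log2 fold change was -0.06 for the members and 0.00 for all genes. Calr was at 165.4, 156.4 and 158.7 against 240.0, 237.8 and 202.0 CPM (log2 fold change -0.50, SE 0.11, adjusted p = 0.0378). Hspa5 was at 1035.0, 1154.0 and 1094.7 against 1556.7, 1378.5 and 1602.6 CPM (-0.47, SE 0.11, adjusted p = 0.0479). Sec61a1 was at 496.4, 431.5 and 489.6 against 654.8, 617.5 and 656.2 CPM (-0.44, SE 0.10, adjusted p = 0.0487). In all 3 genes the libraries of the genotypes did not overlap.

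These 3 calls lie close to the threshold and few held under other settings. Calr lost its call without any 1 of the 6 libraries (adjusted p up to 0.185), Hspa5 without any but Gpx4-deficient replicate 2 (up to 0.209), and Sec61a1 without any but Gpx4-deficient replicate 1 (up to 0.178). With the replicate number as a block 0 of the 30 were called, and with DESeq2 5 were called lower, Derl1 and P4hb (log2 fold changes -0.43 and -0.54) being added.

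Libraries without overlap were seen in both directions. Below wild type lay 7 members (Atf6, Pdia3, P4hb and Derl1 beside the called Hspa5, Calr and Sec61a1) and above it 3 (Ern1, Xbp1 and Hsp90b1), where all genes showed 11.9% and 8.29%. Atf6 was at 12.9, 29.3 and 33.5 against 71.1, 42.3 and 69.7 CPM (log2 fold change -1.27, SE 0.47, adjusted p = 0.188). Derl1 (-0.47, adjusted p = 0.105), P4hb (-0.59, adjusted p = 0.132) and Pdia3 (-0.33, adjusted p = 0.193) were not called by edgeR. Xbp1, at 403.2 to 414.0 against 336.7 to 391.8 CPM, differed by 0.18 (SE 0.12, adjusted p = 0.438), and Ern1 by 0.93 (SE 0.55, adjusted p = 0.400).

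**Figure D4:**
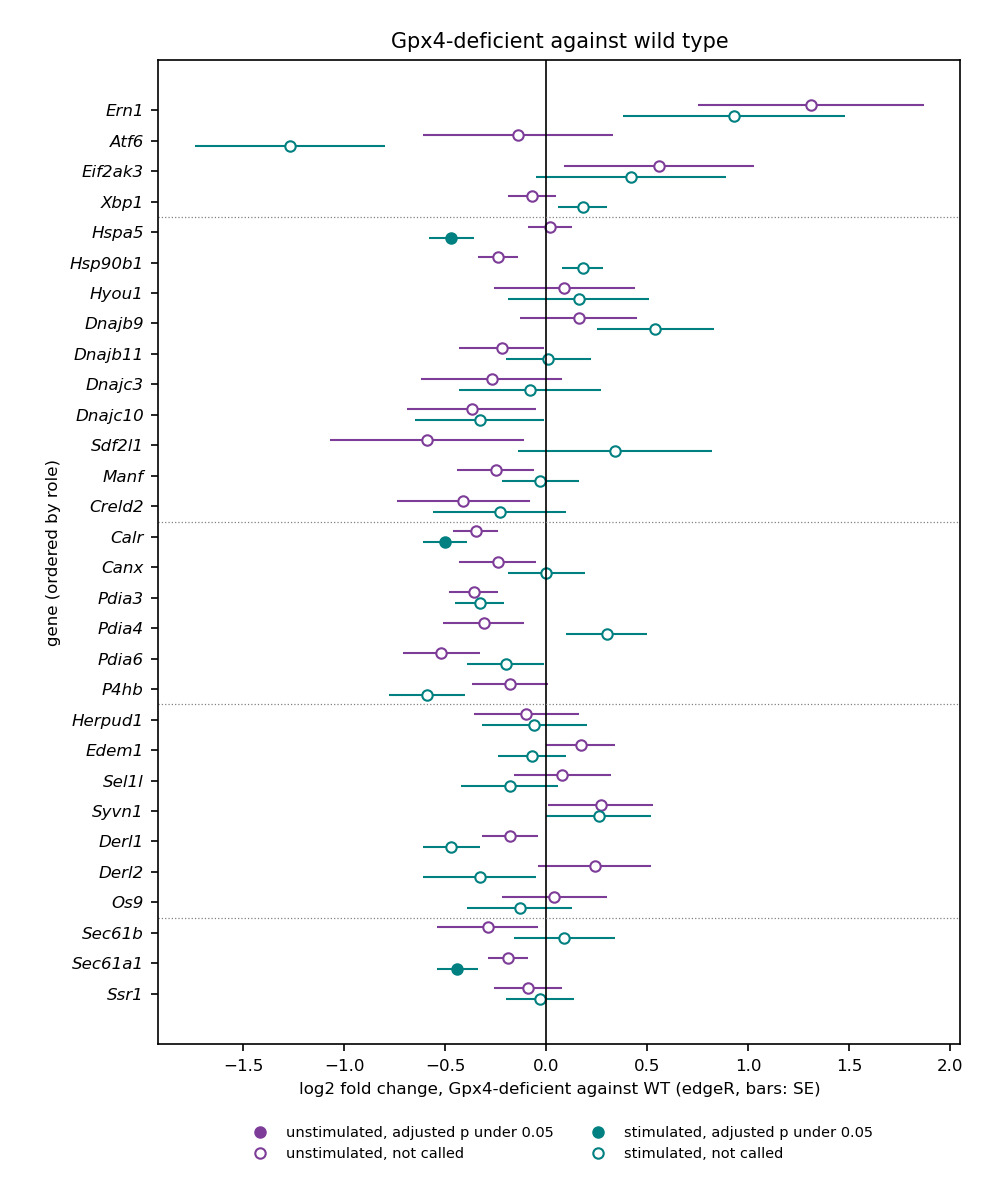
Log2 fold change of Gpx4-deficient against wild-type cells (horizontal axis, points with SE from the edgeR fit) for the 30 genes without (purple) and with stimulation (green), filled where the adjusted p was under 0.05. The filled points are Hspa5, Calr and Sec61a1 with stimulation, between -0.50 and -0.44, and none is filled without it.

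Some markers of other cells moved with genotype. The 10 plasma cell markers, which include the ER genes Derl3, Fkbp11, Mzb1 and Txndc5, summed to 155.5 to 249.1 CPM in unstimulated wild-type and 273.9 to 459.4 CPM in unstimulated Gpx4-deficient libraries. With stimulation they summed to 194.6 to 214.6 and 368.9 to 631.1 CPM. Most of the unstimulated difference was in Igha (means of 33.3 and 174.7 CPM), while Sdc1 (3.34 and 0.566 CPM), Pou2af1 (5.34 and 3.05 CPM) and Iglc2 (8.81 and 7.63 CPM) were lower in the Gpx4-deficient mean. Most of the stimulated difference was in Igha (33.5 and 128.7 CPM), Jchain (20.7 and 102.2 CPM), Txndc5 (134.2 and 186.5 CPM) and Iglc2 (6.53 and 36.6 CPM). Derl3 (3.02 and 1.52 CPM) and Fkbp11 (0.176 and 0.0531 CPM) were lower there in the Gpx4-deficient mean. In each unstimulated group 5 of the 10 had a mean above 5 CPM and in each stimulated group 4, Tnfrsf17 being at 0 in all groups but unstimulated Gpx4-deficient cells (0.201 CPM). The 6 neutrophil markers summed to 29.5 to 92.3 CPM in unstimulated wild-type and 0.653 to 6.38 CPM in unstimulated Gpx4-deficient libraries, with 4 and 0 of them above 5 CPM, and to 21.3 to 59.2 and 4.85 to 57.3 CPM after stimulation (2 and 3). The 7 erythroid and platelet markers summed to 44.8 to 62.2 against 25.6 to 38.4 CPM without stimulation (3 and 3 above 5 CPM) and to 8.53 to 23.5 against 33.1 to 54.2 CPM with it (1 and 4). The 6 CD8 and NK markers summed to 9.76 to 17.9 against 21.4 to 24.9 CPM with stimulation (1 and 3). Most of that difference was in Klrk1 (means of 0.461 and 7.02 CPM) and Klrb1c (1.81 and 5.78 CPM). Cd8b1 was at 9.91 and 10.4 CPM, and Ncr1 (0.721 and 0 CPM) and Gzma (1.42 and 0 CPM) were lower in the Gpx4-deficient mean. The monocyte sums given above also separated the stimulated genotypes. The 7 dendritic markers, mostly Bst2, summed to 72.8 to 107.2 against 51.7 to 69.7 CPM without stimulation and overlapped with it. Plasma cells are rich in ER. The part of these cells in the differences was not tested, nor was that of the mitochondrial share given above.

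Whether the genotypes differed in their response to stimulation was tested by the interaction. None of the 30 members was called by edgeR, DESeq2 or limma-voom, where 0.202% of all tested genes were called by edgeR, and 3 members had an unadjusted p under 0.05, as had 1298 of all 14827 genes. Those 3 were Hspa5 (difference of log2 fold changes -0.48, SE 0.15, adjusted p = 0.389), Hsp90b1 (0.42, SE 0.14, adjusted p = 0.433) and Pdia4 (0.61, SE 0.28, adjusted p = 0.566). Hsp90b1 was at 477.0 ± 33.6 and 407.6 ± 11.1 CPM in wild type and at 403.5 ± 38.9 and 462.7 ± 26.0 CPM in Gpx4-deficient cells (unstimulated and stimulated, SD, n = 3). A stimulation call present in only 1 genotype (Derl1, Sec61a1, Sdf2l1, Pdia4, Ssr1, Hspa5 or Edem1) is therefore not shown to differ between them.

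Beyond the 30 members, 137 symbols of the same pathway were listed, of which 128 were in the table and 123 were tested. After stimulation of wild-type cells 13 of them rose and 2 fell (median log2 fold change 0.14), and in Gpx4-deficient cells 17 rose and 3 fell (median 0.15). Over all genes 6.12% rose and 5.41% fell in wild type (median -0.03), and 7.45% rose and 7.83% fell in Gpx4-deficient cells (median -0.02). Between the stimulated genotypes 1 was higher and 1 lower, no more than the shares of all genes (1.03% and 1.25%).

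Of 23 other folding factors tested, 2 rose in both genotypes, near the share of all genes. They were the oxidase gene Ero1l, which recharges disulfide isomerases, and the isomerase gene Txndc5. Ero1l went from 66.7 ± 12.3 to 193.5 ± 23.4 CPM in wild type (log2 fold change 1.54, adjusted p = 0.00236) and from 61.2 ± 18.3 to 160.4 ± 46.5 CPM in Gpx4-deficient cells (1.39, adjusted p = 0.00409). Of 22 other degradation genes 1 rose in wild type, no more than the share of all genes (6.12%). It was the ubiquitin-conjugating enzyme gene Ube2g2 (1.17, adjusted p = 0.0058). In Gpx4-deficient cells 3 rose, Selenos (0.86, adjusted p = 0.00264), Ubxn4 and Ube2g2, where 7.45% of all genes rose.

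Of 34 translocon, signal peptidase and oligosaccharyltransferase genes, 2 rose and 1 fell in wild type, no more than the shares of all genes (6.12% and 5.41%). In Gpx4-deficient cells 4 rose, where 7.45% of all genes rose. Stt3a, a catalytic subunit that attaches N-glycans, rose in both, from 272.8 ± 35.9 to 559.7 ± 56.1 CPM in wild type and from 248.2 ± 11.5 to 516.6 ± 128.1 CPM in Gpx4-deficient cells. Srprb, which anchors the receptor of the signal recognition particle, rose in wild type from 68.6 ± 4.73 to 188.6 ± 16.8 CPM (log2 fold change 1.46, adjusted p = 0.000274). In Gpx4-deficient cells it was at 70.1 ± 15 and 81.9 ± 9.97 CPM, and it was lower there than in wild type after stimulation (-1.20, SE 0.19, adjusted p = 0.00759). Its interaction was not called (adjusted p = 0.122).

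Among 20 partners of unfolded protein response signalling, 6 rose and 1 fell in wild type and 5 rose and 3 fell in Gpx4-deficient cells. Atf4, the transcription factor translated when eIF2alpha is phosphorylated, rose from 109.8 ± 5.83 to 280.1 ± 18.9 CPM in wild type (1.35, adjusted p = 7.71e-05) and from 137.1 ± 17.9 to 211.4 ± 32.2 CPM in Gpx4-deficient cells (0.62, adjusted p = 0.0134). Ppp1r15a, whose product reverses that phosphorylation, fell from 1597.7 ± 171.2 to 471.2 ± 4.99 CPM (-1.76, adjusted p = 3.6e-06) and from 2175.3 ± 173.4 to 356.4 ± 64.3 CPM (-2.61, adjusted p = 2.03e-07). Trib3, a pseudokinase gene induced downstream of ATF4, went from 5.88 ± 1.06 to 188.8 ± 30.6 CPM in wild type (5.00, SE 0.96, adjusted p = 0.00424) and from 7.25 ± 7.89 to 79.6 ± 29.2 CPM in Gpx4-deficient cells, called in both. Of 24 KDEL receptor and COPII export genes 2 rose in wild type, near the share of all genes, and 3 in Gpx4-deficient cells. The COPII GTPase gene Sar1a rose in both (1.40 and 1.02, adjusted p = 0.000129 and 0.00125). Sec16a, which organises ER exit sites, was higher in stimulated Gpx4-deficient than in stimulated wild-type cells, at 351.5 ± 46.0 against 204.4 ± 38.3 CPM (0.78, SE 0.16, adjusted p = 0.0314). The calls of genes beyond the members, Sec16a and Srprb among them, were not followed through the alternative runs.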

How the data were processed

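RNA sequencing libraries of 12 samples were analysed from the authors' deposited gene table of expected counts (estimated counts that need not be whole), which its name credits to RSEM. The submitters' processing notes name GRCm38. Aligner, strand setting and tool versions: not given in the sources used here. Columns were matched to samples by title. Counts were rounded and fitted with edgeR 4.0.16 in R 4.3.3 (filterByExpr, TMM, robust quasi-likelihood F test), with 4 group means over all 12 libraries (8 residual degrees of freedom). The fit was also run on simulated counts with independent libraries, which cannot show the effect of outlying libraries or of a batch. SE is the log2 fold change over the root of F. Alternatives were DESeq2 1.42.0, limma 3.58.1 (voom), RLE scaling, other filters, a replicate block, 2-group fits and leaving out libraries. Levels are CPM with TMM factors. Positions and exon-union lengths come from the GENCODE annotation of GRCm38. The titles repeat the same replicate numbers in the unstimulated and stimulated samples of a genotype. They do not say whether same-numbered samples share an animal or a day, so the main fit did not pair them. The members and lists were chosen with earlier results of these data known. Values per library are given for Hspa5, Xbp1, the 3 sensors and every called member. For other lists up to 4 called genes by adjusted p qualified, of which some are described.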

Additional observations from a re-analysis of the deposited data

How the results depend on the processing

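The counts of members called in the genotype comparison without stimulation and in the interaction stayed at 0 under every alternative run, and the count after stimulation of wild type stayed between 7 and 13 (main 9). The 3 calls between stimulated genotypes became 1 with RLE scaling, with a filter of 1 CPM in 3 libraries, with non-robust dispersion and without mitochondrially encoded genes, 5 with DESeq2, and 0 with no filter, with a replicate block and with a fit of only those groups. Without 1 library they ranged from 0 to 1 (1 without Gpx4-deficient replicates 1 or 2, 0 without the others). The 10 calls after stimulation of Gpx4-deficient cells became 4 with only those groups and ranged from 4 to 10 without 1 library (6, 4 and 5 without unstimulated replicates 1, 2 and 3). Leaving out unstimulated Gpx4-deficient replicate 1 and stimulated Gpx4-deficient replicate 3 together, chosen after seeing the data, gave 0, 2, 11, 9 and 0 members in the order of unstimulated genotype, stimulated genotype, wild-type stimulation, Gpx4-deficient stimulation and interaction. Of 22 member calls 11 held under every alternative run, 11 were lost under at least 1, and 0 reversed. After the group mean of each gene was taken away, the remaining deviations of same-numbered samples correlated between -0.02 and 0.03. With 3 samples a group this does not settle whether the numbers pair samples. The replicate block also gave 8 and 9 calls for stimulation in wild type and Gpx4-deficient cells. Calls over all genes ranged from 3 to 183 (main 10), 22 to 1532 (main 337), 1150 to 3499 (main 1709), 1022 to 3586 (main 2266) and 0 to 385 (main 30) in the same order. The causes were not tested.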
